A study of Mus musculus with 9 samples.

Results

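The 10 genes described here are Atf4 and the nearest circle of genes around it in the integrated stress response: Ddit3, Atf3, Trib3, Chac1, Ppp1r15a, Sesn2, Asns, Stc2 and Cebpg. They were picked by gene symbol, with earlier results of these data known, and all 10 were found among 56691 genes in the deposited table. RNA was sequenced from RAW264.7, a mouse macrophage line that forms osteoclast-like cells under RANKL, the cytokine that drives osteoclast formation. The 9 libraries form 3 groups of 3: control cells without RANKL or UD, cells given RANKL at 50 ng/mL, and cells given the same RANKL together with UD (uridine, a pyrimidine nucleoside). All cells were harvested after 3 days, and the UD dose of these libraries is not given in the sources used here. The study asked how UD alters osteoclast formation, and for these genes 3 comparisons follow: RANKL against control, RANKL + UD against RANKL, and RANKL + UD against control. No group given UD without RANKL was analysed here. A single cell line stands behind every library, the labels call the libraries replicate samples without naming separate cultures, and p-values therefore measure only the spread between these libraries.

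In the integrated stress response, kinases that sense amino acid shortage, unfolded proteins in the endoplasmic reticulum, double-stranded RNA or heme shortage phosphorylate the translation factor eIF2α. Most protein synthesis then slows, while the mRNA of Atf4 is translated more efficiently. The transcription factor ATF4 pairs with other bZIP proteins and switches on genes for amino acid uptake and synthesis and, under lasting stress, Ddit3, which encodes the transcription factor CHOP. In osteoclast precursors ATF4 has also been linked to RANKL signaling. Because ATF4 is controlled largely through translation, the level of its mRNA is not a measure of the protein.

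RANKL + UD held less mRNA of all 10 genes than RANKL, where 20.2% of all tested genes were lower. The fall ranged from 1.27-fold for Cebpg to 7.01-fold for Trib3, and Trib3, Chac1, Ddit3 and Atf3 each fell more than 4-fold. Against control, RANKL raised 8 of the 10 genes and lowered Atf3, where 27.3% of all tested genes were higher and 30.2% lower. RANKL + UD was below control in 9 of the 10 genes and above it in Sesn2, where 27.3% of all tested genes were lower and 26.7% higher.

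The promoters of 6 of the genes are shown because 4 of them fell most under UD, and because Asns and Ppp1r15a complete the set of members with a motif match. Each stretch runs 5′ to 3′ on the strand of its gene, from 200 bases before the RefSeq start site to 21 bases after it, in GRCm38.p6 as given by RefSeq. Capitals mark matches to the C/EBP-ATF response element core TGATGNAA (TTNCATCA on the other strand), to which ATF4 can bind with a C/EBP partner, or to the cyclic AMP response element TGACGTCA.

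Trib3 promoter, chr2:152344039-152344260, minus strand: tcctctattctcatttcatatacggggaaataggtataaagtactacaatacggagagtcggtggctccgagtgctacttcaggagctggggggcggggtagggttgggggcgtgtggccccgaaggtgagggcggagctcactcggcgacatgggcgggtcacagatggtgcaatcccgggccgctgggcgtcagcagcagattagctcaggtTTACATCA
Chac1 promoter, chr2:119351042-119351263, plus strand: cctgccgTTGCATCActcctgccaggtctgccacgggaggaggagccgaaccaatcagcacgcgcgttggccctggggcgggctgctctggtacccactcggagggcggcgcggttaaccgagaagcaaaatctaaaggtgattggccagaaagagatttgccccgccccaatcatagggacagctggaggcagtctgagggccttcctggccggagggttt
Ddit3 promoter, chr10:127290593-127290814, plus strand: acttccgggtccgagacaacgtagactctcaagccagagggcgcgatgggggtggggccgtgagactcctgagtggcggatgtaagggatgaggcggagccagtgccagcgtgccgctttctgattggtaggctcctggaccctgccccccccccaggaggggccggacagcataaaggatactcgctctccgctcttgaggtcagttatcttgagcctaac
Atf3 promoter, chr1:191183312-191183533, minus strand: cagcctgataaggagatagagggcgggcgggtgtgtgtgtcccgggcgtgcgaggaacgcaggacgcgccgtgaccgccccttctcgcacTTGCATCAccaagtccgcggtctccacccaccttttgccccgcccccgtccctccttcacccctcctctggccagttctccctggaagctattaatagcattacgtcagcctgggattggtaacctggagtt
Asns promoter, chr6:7693188-7693409, minus strand: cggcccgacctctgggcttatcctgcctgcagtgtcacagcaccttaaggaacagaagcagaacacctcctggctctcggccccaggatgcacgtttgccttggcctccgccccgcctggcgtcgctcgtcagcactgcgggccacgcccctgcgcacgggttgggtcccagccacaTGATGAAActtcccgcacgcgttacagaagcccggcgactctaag
Ppp1r15a promoter, chr7:45526247-45526468, minus strand: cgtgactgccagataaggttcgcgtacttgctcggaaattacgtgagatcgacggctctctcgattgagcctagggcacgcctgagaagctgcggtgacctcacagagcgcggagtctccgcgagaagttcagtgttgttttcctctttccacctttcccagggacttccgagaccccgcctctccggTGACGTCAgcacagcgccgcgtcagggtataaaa

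Both strands of a 300-base window, from 250 bases before each start site to 50 after it, were searched for both motifs. All 10 genes had a window. The C/EBP-ATF core was found in 4 of them and in 1304 of 32851 windows of all genes (3.97%). In Atf3 the match began 110 bases before the start site, in Chac1 193 bases before it, in Asns 23 bases before it, and in Trib3 14 bases after it. The cyclic AMP response element was found in Ppp1r15a alone, 12 bases before the start site, against 588 windows of all genes (1.79%). In the windows of Atf4, Ddit3, Sesn2, Stc2 and Cebpg neither run of letters occurred, and bases beyond the windows were not searched. These matches describe the letters only, as no binding was measured.

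Levels are given as FPKM, reads on a gene scaled for its exonic length and for the reads counted in the library. Total counts were 15951800 to 19746862. Fold changes and tests come from the read counts, scaled by the TMM method and fitted with edgeR's quasi-likelihood test over the 11995 genes that reached 1 FPKM in 3 or more libraries. A gene is called higher or lower at an adjusted p under 0.05. All 10 genes reached 1 FPKM in all 9 libraries, so none entered the test through a single group. The fewest reads, 38, fell on Chac1 in RANKL + UD library 1. The comparisons share libraries, so a high RANKL value enters both the rise over control and the fall under UD. Summed over 9 osteoclast markers, FPKM was 46.9 to 50.1 in control, 2641 to 2844 in RANKL and 1666 to 1703 in RANKL + UD. Of these, 8 of 8 tested markers were lower in RANKL + UD than in RANKL, where 20.2% of all tested genes were. Summed over 7 macrophage markers, FPKM was 9345 to 9935, 2494 to 2741 and 2176 to 2309 in the same order. Lyz2, named with Cd68 and Adgre1 after their values were seen, held most of that sum, with a mean of 8000 FPKM in control and 1431 in RANKL. Of the 6 tested macrophage markers 5 were lower and 1, Cd68, higher in RANKL against control. Of all tested genes 30.2% were lower and 27.3% higher there. In RANKL + UD against RANKL 5 of the 6 were lower and 1, Adgre1, higher, where 20.2% of all tested genes were lower and 18.6% higher. Of the lymphocyte markers, Cd3e was listed at 0 in every library, and the sum over the list of 4 reached at most 0.29, and each of 5 osteoblast and stromal markers stayed under 1 FPKM. In bulk RNA, fewer cells of a type and less RNA per cell cannot be told apart. Mitochondrial genes took 3.67 to 4.03% of reads in control, 4.46 to 4.71% in RANKL and 4.49 to 4.70% in RANKL + UD. Their part, and that of the osteoclast markers, in the levels below was not tested.

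**Figure D1:**
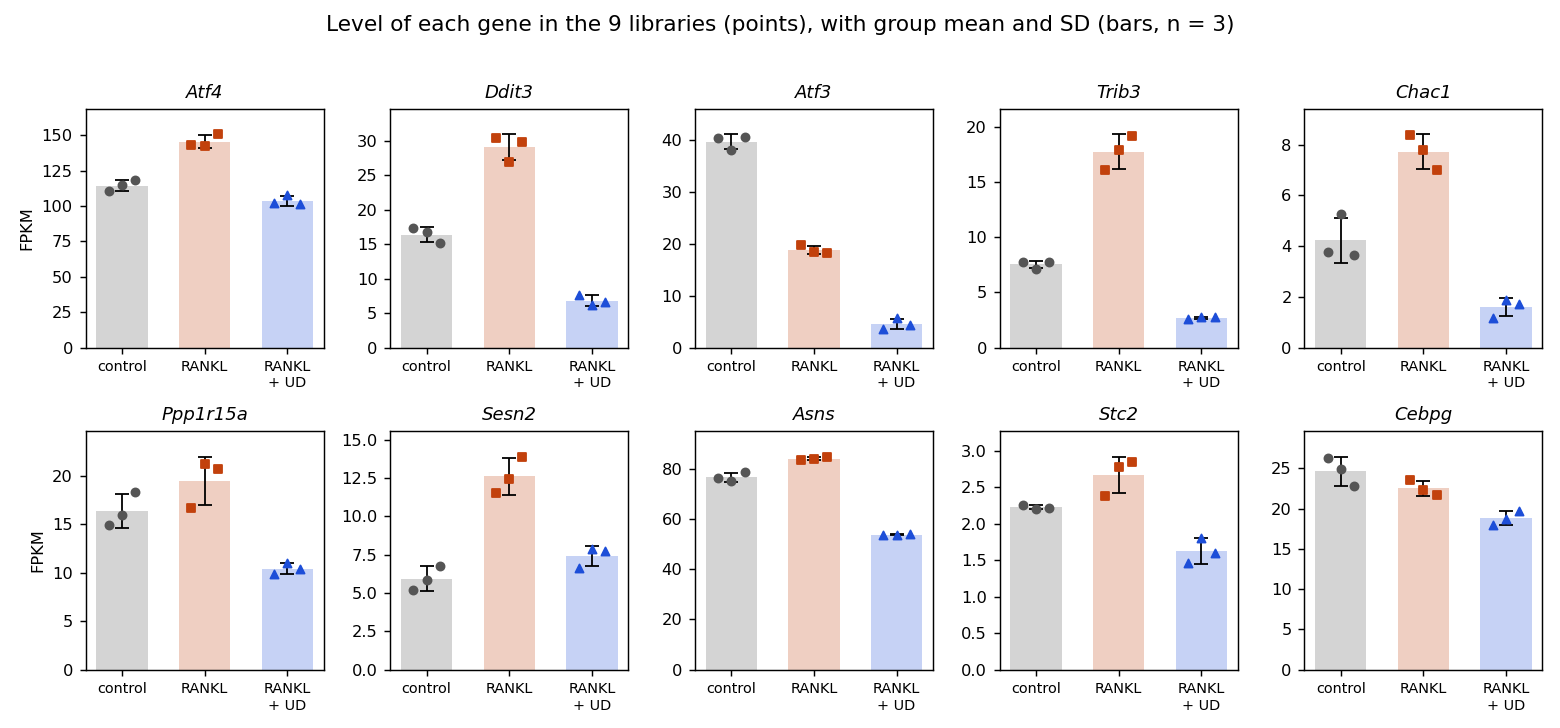
FPKM (vertical axis, from 0) of each of the 10 genes in control, RANKL and RANKL + UD. Points are the 3 libraries of a group, bars are group means and whiskers are SD. For every gene the 3 RANKL + UD points lie below the 3 RANKL points, and for Atf3 the control points are the highest of the 9.

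Atf4 (ENSMUSG00000042406, chromosome 15, 80139385 to 80141742, plus strand) was the most abundant of the 10 per length of transcript. Its FPKM was 110.5, 114 and 118 in the control libraries, 143, 142 and 150.5 in RANKL, and 102, 108 and 102 in RANKL + UD. The order was RANKL, then control, then RANKL + UD, and no library of a group reached into the next group. RANKL raised Atf4 by 0.43 ± 0.05 on the log2 scale (SE, edgeR adjusted p = 8.01e-08). It was 1.49-fold lower in RANKL + UD than in RANKL, a log2 difference of -0.57 ± 0.05 (SE, edgeR adjusted p = 6.04e-09). Against control the difference of RANKL + UD was -0.14 ± 0.05 (SE, edgeR adjusted p = 0.0161). That last call was lost without RANKL + UD library 1 (edgeR adjusted p = 0.0598), without RANKL + UD library 3 (edgeR adjusted p = 0.0731) and with no filter on low genes (edgeR adjusted p = 0.0732).

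Positions here and below are those of the deposited table. The labels name mm10, yet only 1 of the 10 genes, Asns, and 1472 of 52073 genes shared with the GRCm38 annotation have the same start and end there. The build behind the table's positions is therefore not known, and they are not to be set beside the promoter positions above.

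Ddit3 (ENSMUSG00000025408, chromosome 10, 127126643 to 127132157, plus strand) encodes CHOP, a bZIP factor tied to cell death under lasting stress. Control libraries held 17.3, 16.7 and 15.2 FPKM, RANKL libraries 30.4, 27.0 and 29.8, and RANKL + UD libraries 7.66, 6.19 and 6.56. The 3 groups were fully separate, with RANKL highest and RANKL + UD lowest. RANKL raised Ddit3 1.88-fold over control, by 0.91 ± 0.09 on the log2 scale (SE, edgeR adjusted p = 1.6e-08). With UD it was 4.52-fold lower than in RANKL, at -2.18 ± 0.10 (SE, edgeR adjusted p = 8.9e-13), and ranked 46 from the lowest among the 11995 genes. It was also 2.40-fold below control, at -1.26 ± 0.10 (SE, edgeR adjusted p = 7.01e-10). The end of Ddit3 shares 68 bases with Mars1, a tRNA synthetase gene on the opposite strand with a mean FPKM of 43.0, and whether counting used the strand is not stated in the sources used here. Mars1 itself was lower by 0.27 on the log2 scale in RANKL + UD than in RANKL, where Ddit3 was lower by 2.18. A second gene model inside Ddit3, on the same strand, was listed at 0 in every library.

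Atf3 (ENSMUSG00000026628, chromosome 1, 190902493 to 190950236, minus strand) encodes a bZIP factor induced by many kinds of stress. Its FPKM was 40.4, 38.2 and 40.7 in control, 19.8, 18.4 and 18.3 in RANKL, and 3.64, 5.64 and 4.27 in RANKL + UD. Control was the highest group, RANKL lower and RANKL + UD lowest, and no library of a group reached into the next. RANKL lowered it 1.98-fold, at -0.99 ± 0.09 on the log2 scale (SE, edgeR adjusted p = 3.57e-09). RANKL + UD was a further 4.47-fold lower, at -2.16 ± 0.11 (SE, edgeR adjusted p = 3.71e-12). Relative to control both steps together left RANKL + UD 8.86-fold lower, at -3.15 ± 0.10 (SE, edgeR adjusted p = 2.55e-16), which placed Atf3 at rank 112 from the lowest of 11995 genes in that comparison.

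Cebpg (ENSMUSG00000056216, chromosome 7, 34745847 to 34755998, minus strand) encodes a C/EBP protein that lacks an activation domain of its own and dimerizes with ATF4. Control libraries held 26.3, 24.9 and 22.8 FPKM, RANKL libraries 23.5, 22.3 and 21.7, and RANKL + UD libraries 18.0, 18.7 and 19.7. The control and RANKL libraries overlapped, while all RANKL + UD libraries lay below both. RANKL differed from control by -0.05 on the log2 scale with a 95% interval of -0.17 to 0.08, which did not pass the test (edgeR adjusted p = 0.525). The difference of RANKL + UD was -0.35 ± 0.06 from RANKL (SE, edgeR adjusted p = 8.56e-05) and -0.39 ± 0.06 from control (SE, edgeR adjusted p = 9.08e-06). Cebpg overlaps the predicted genes Gm44836 and Gm45094 on its own strand, which had mean FPKM values of 3.55 and 2.61, and how reads shared by overlapping genes were assigned is not given in the sources used here.

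Among the members that act back on the pathway, Trib3 (ENSMUSG00000032715, chromosome 2, 152179342 to 152185952, minus strand) encodes a pseudokinase that is induced by ATF4 and CHOP and restrains them. Its FPKM was 7.74, 7.15 and 7.73 in control, 16.1, 18.0 and 19.2 in RANKL, and 2.56, 2.74 and 2.78 in RANKL + UD. Each RANKL library was above all controls and each RANKL + UD library below them. RANKL raised Trib3 2.51-fold, by 1.33 ± 0.09 on the log2 scale (SE, edgeR adjusted p = 1.14e-10). The fall under UD was the largest of the 10, 7.01-fold from RANKL or -2.81 ± 0.11 (SE, edgeR adjusted p = 1.12e-13) and ranked 19 from the lowest among the 11995 genes. Against control it was 2.80-fold lower, at -1.48 ± 0.11 (SE, edgeR adjusted p = 4.22e-10).

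Ppp1r15a (ENSMUSG00000040435, chromosome 7, 45172340 to 45175692, minus strand) encodes GADD34, the inducible subunit of the phosphatase that removes phosphate from eIF2α. Control libraries held 14.9, 15.9 and 18.3 FPKM, RANKL libraries 16.6, 21.2 and 20.7, and RANKL + UD libraries 9.84, 11.0 and 10.4. RANKL library 1 lay within the control range, and all RANKL + UD libraries lay below both other groups. The rise with RANKL was 0.34 ± 0.09 on the log2 scale (SE, edgeR adjusted p = 0.00297). RANKL + UD was 1.99-fold lower than RANKL, at -0.99 ± 0.09 (SE, edgeR adjusted p = 3.78e-08), and 1.58-fold lower than control, at -0.66 ± 0.09 (SE, edgeR adjusted p = 4.56e-06). Tulp2 overlaps it on the opposite strand with a mean FPKM of 0.306.

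Sesn2 (ENSMUSG00000028893, chromosome 4, 132219343 to 132237812, minus strand) encodes sestrin 2, a leucine sensor that holds back mTORC1. Its FPKM was 5.19, 5.86 and 6.78 in control, 11.5, 12.4 and 13.9 in RANKL, and 6.66, 7.85 and 7.71 in RANKL + UD. RANKL libraries lay above all others, while RANKL + UD library 1 fell below control library 3. RANKL raised Sesn2 2.26-fold, by 1.17 ± 0.10 on the log2 scale (SE, edgeR adjusted p = 2.21e-09). RANKL + UD was 1.81-fold below RANKL, at -0.86 ± 0.10 (SE, edgeR adjusted p = 6.9e-07). It was the only one of the 10 called higher in RANKL + UD than in control, by 0.32 ± 0.10 (SE, edgeR adjusted p = 0.0141), and this call was lost without control library 1 (edgeR adjusted p = 0.081), RANKL + UD library 2 (edgeR adjusted p = 0.0601) or RANKL + UD library 3 (edgeR adjusted p = 0.0542). The table also lists Gm12981 inside Sesn2 on the same strand, with a mean FPKM of 0.508.

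Asns (ENSMUSG00000029752, chromosome 6, 7675169 to 7693254, minus strand) encodes asparagine synthetase, a classical ATF4 target. Control libraries held 76.1, 74.9 and 78.6 FPKM, RANKL libraries 83.4, 83.8 and 84.8, and RANKL + UD libraries 53.7, 53.7 and 53.8. The RANKL + UD libraries were nearly equal, and no groups overlapped. The rise with RANKL was 0.22 ± 0.04 on the log2 scale (SE, edgeR adjusted p = 0.000222). RANKL + UD was 1.66-fold lower than RANKL, at -0.73 ± 0.05 (SE, edgeR adjusted p = 1.24e-10), and 1.42-fold lower than control, at -0.51 ± 0.05 (SE, edgeR adjusted p = 4.53e-09).

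Chac1 (ENSMUSG00000027313, chromosome 2, 119181710 to 119184862, plus strand) encodes an enzyme that degrades glutathione and lies downstream of ATF4 and CHOP. Its FPKM was 3.77, 5.26 and 3.64 in control, 8.37, 7.78 and 7.01 in RANKL, and 1.18, 1.87 and 1.73 in RANKL + UD. The groups did not overlap although control library 2 stood above the other controls. RANKL raised Chac1 1.93-fold, by 0.95 ± 0.17 on the log2 scale (SE, edgeR adjusted p = 5.24e-05). RANKL + UD was 5.17-fold below RANKL, at -2.37 ± 0.19 (SE, edgeR adjusted p = 4.33e-09), and 2.68-fold below control, at -1.42 ± 0.20 (SE, edgeR adjusted p = 3.62e-06). Chac1 had the widest errors of the 10, with 38 to 50 reads a library in RANKL + UD.

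Stc2 (ENSMUSG00000020303, chromosome 11, 31307307 to 31320074, minus strand) encodes stanniocalcin 2, a secreted glycoprotein induced through ATF4. It was the least abundant of the 10 in control and RANKL, with 2.25, 2.20 and 2.22 FPKM in control and 2.38, 2.77 and 2.85 in RANKL. In RANKL + UD its FPKM was 1.46, 1.81 and 1.60, below every other library. The rise with RANKL was 0.35 ± 0.12 on the log2 scale (SE, edgeR adjusted p = 0.018). That call was lost with library totals as the scaling (edgeR adjusted p = 0.0729), and without control library 2 (0.0513), RANKL library 2 (0.0604) or RANKL library 3 (0.0725). RANKL + UD was 1.75-fold lower than RANKL, at -0.80 ± 0.13 (SE, edgeR adjusted p = 3.08e-05), and 1.37-fold lower than control, at -0.45 ± 0.13 (SE, edgeR adjusted p = 0.0051).

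**Figure D2:**
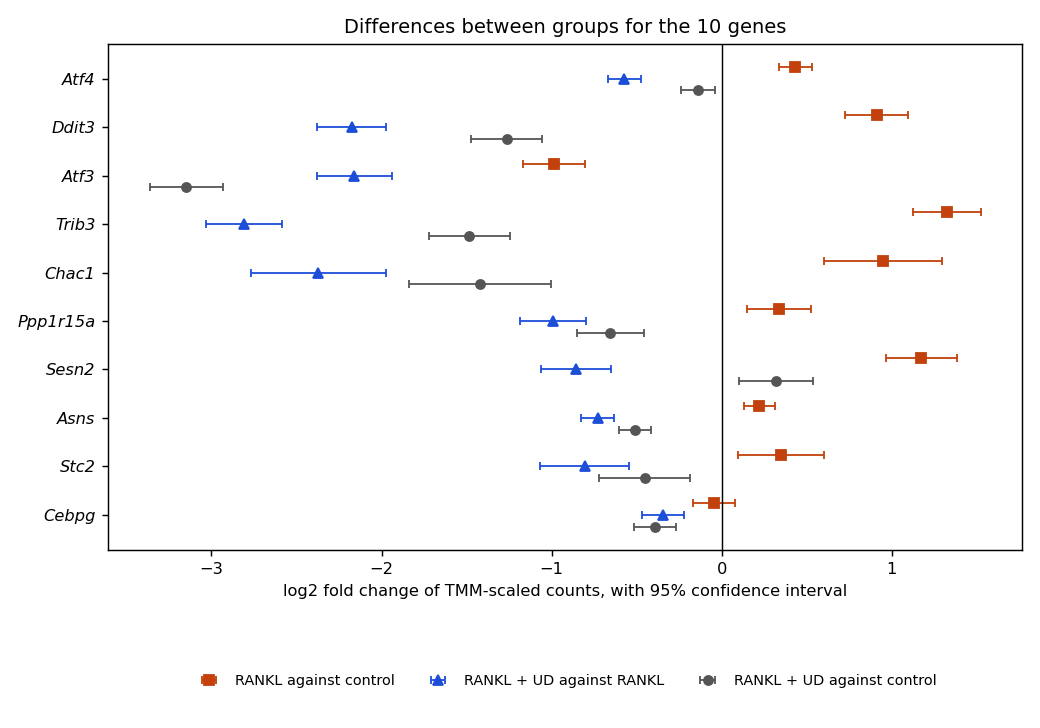
Log2 fold change (horizontal axis) with its 95% confidence interval from the edgeR fit for each of the 10 genes in the 3 comparisons. All 10 values for RANKL + UD against RANKL lie left of 0, from -0.35 for Cebpg to -2.81 for Trib3, and Sesn2 is the only gene whose value for RANKL + UD against control lies right of 0.

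Set beside all genes tested, the 10 moved mostly up with RANKL. Of the 10 genes, 8 were called higher in RANKL than in control, where 27.3% of all tested genes were, and 1 was called lower, where 30.2% were. In 7 genes every RANKL library lay above every control library (28.9% of all genes), and in Atf3 every one lay below (32.1% of all genes). The 8 became 7, without Stc2, when control library 2, RANKL library 2 or RANKL library 3 was left out or library totals were used. The median log2 fold change of the 10 was 0.39, against -0.03 over all genes. The difference between RANKL + UD and RANKL ran the other way. All 10 were called lower, against 20.2% of all genes, and in all 10 every RANKL + UD library lay below every RANKL library, against 24.9%. Their median was -0.92, against 0.005 over all genes. Against control, RANKL + UD was lower in 9 of the 10, where 27.3% of all genes were lower, and higher in Sesn2, where 26.7% were higher. For those 9 the libraries did not overlap (30.4% of all genes). The 9 became 8 without RANKL + UD library 1 or 3 or with no filter on low genes, where Atf4 was lost, and the 1 became 0 without control library 1 or RANKL + UD library 2 or 3, where Sesn2 was lost. The median was -0.58, against -0.002 over all genes.

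Scaling by library totals in place of TMM moved the median of all genes from -0.03 to -0.12 in RANKL against control and from 0.005 to 0.09 in RANKL + UD against RANKL. It turned the split of all calls in the latter comparison from 2233 higher and 2418 lower to 3350 higher and 1707 lower. All 10 genes remained lower in RANKL + UD than in RANKL under that scaling.

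The change relative to Atf4 varied between the 9 other genes. Within each library the FPKM of a gene was divided by that of Atf4, which removes library scaling, and groups were compared by an exact two-sided permutation test. With 3 libraries against 3 the smallest p this test can give is 0.1, and over the 27 comparisons made the smallest Benjamini-Hochberg value was 0.117, so none could pass 0.05. Ratios were taken for these 9 genes only, so the share of all tested genes without overlap is not known. Atf4 itself rose with RANKL and fell with UD, so the ratio of an unchanged gene would move the other way. The log2 ratio of Trib3 to Atf4 was -3.03 ± 0.10 in RANKL and -5.27 ± 0.07 in RANKL + UD (SD, n = 3), a difference of -2.23. For Chac1, Ddit3 and Atf3 the difference was -1.81, -1.61 and -1.60. In each of these 4 genes all RANKL + UD ratios lay below all RANKL ratios. Ppp1r15a, Sesn2 and Asns moved by -0.41, -0.28 and -0.16 relative to Atf4, also with no overlap between libraries. The ratio of Stc2 moved by -0.23 with overlapping libraries (exact permutation p = 0.2), and that of Cebpg rose by 0.23 because it fell less than Atf4. In RANKL against control the ratios of Ddit3, Trib3, Chac1 and Sesn2 lay above all controls, those of Atf3, Asns and Cebpg below, and those of Ppp1r15a and Stc2 overlapped. Even with UD, the Sesn2 ratio lay above every control library, by 0.46 on average.

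**Figure D3:**
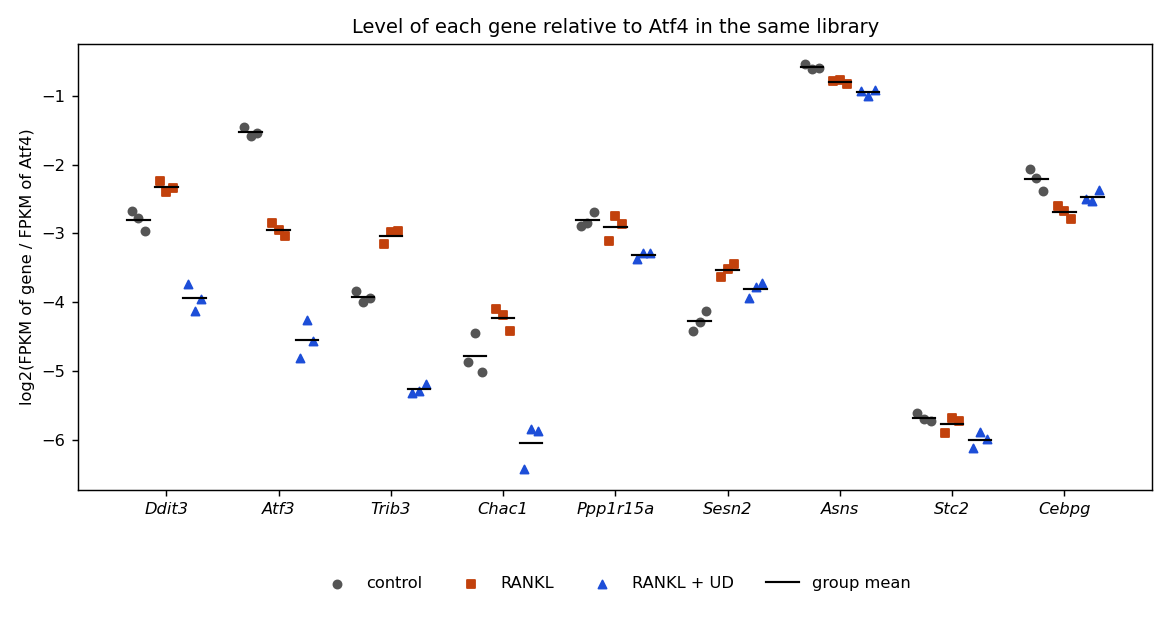
Log2 of the FPKM of each gene over the FPKM of Atf4 in the same library (vertical axis), by gene. Points are libraries and lines are group means. In Trib3, Chac1, Ddit3 and Atf3 the RANKL + UD mean lies about 1.60 to 2.23 below the RANKL mean. Cebpg is the only gene whose RANKL + UD points all lie above its RANKL points.

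Further target genes of ATF4 and CHOP were examined next, from a list of amino acid, one-carbon, transport, redox, cell death and some other genes. This list and those that follow were chosen with earlier results of these data known, so their counts are a description and not a test. In RANKL + UD against RANKL, 35 of the 41 tested genes were lower, 2 were higher and 4 were not called. Of all tested genes 20.2% were lower and 18.6% higher. The median log2 fold change was -0.74, against 0.005 over all genes. The 4 that fell most were Soat2 (sterol esterification) at -2.15, Ndrg1 (stress and hypoxia response) at -1.96, Cth (cysteine synthesis) at -1.82 and Slc1a4 (neutral amino acid transport) at -1.59. Cth held 1.60 to 2.01 FPKM in control, 6.45 to 6.99 in RANKL and 1.99 to 2.11 in RANKL + UD. Its difference between RANKL + UD and control, 0.21 on the log2 scale, did not pass the test (edgeR adjusted p = 0.238), whereas Trib3 stood below control. Ndrg1 held 47.0 to 47.3 FPKM in control, 49.3 to 50.4 in RANKL and 13.4 to 13.9 in RANKL + UD, so most of its fall was below the control level. Atg5 (autophagy) and Slc7a6 (amino acid transport) were the 2 that rose, by 0.24 and 0.27. In RANKL against control, 26 of the 41 were higher and 7 lower (median 0.28), where 27.3% of all genes were higher and 30.2% lower. In RANKL + UD against control 5 were higher and 28 lower (median -0.31), where 26.7% of all genes were higher and 27.3% lower. These shares over all genes apply to the counts of the lists that follow as well. A further 6 genes of this list did not pass the filter.

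The aminoacyl-tRNA synthetases, which load amino acids onto tRNA and many of which are ATF4 targets, were counted in the same way. In RANKL + UD against RANKL 13 of 20 were lower, 1 higher and 6 not called, with a median of -0.30, where 20.2% of all genes were lower. Cars, for cysteine, fell by 0.77 on the log2 scale, Sars, for serine, fell by 0.69, Nars, for asparagine, fell by 0.60 and Aars, for alanine, fell by 0.58. Hars, for histidine, rose by 0.20. In RANKL against control 15 of the 20 were higher and 1 lower (median 0.24), and in RANKL + UD against control 5 were higher and 10 lower (median -0.12).

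**Figure D4:**
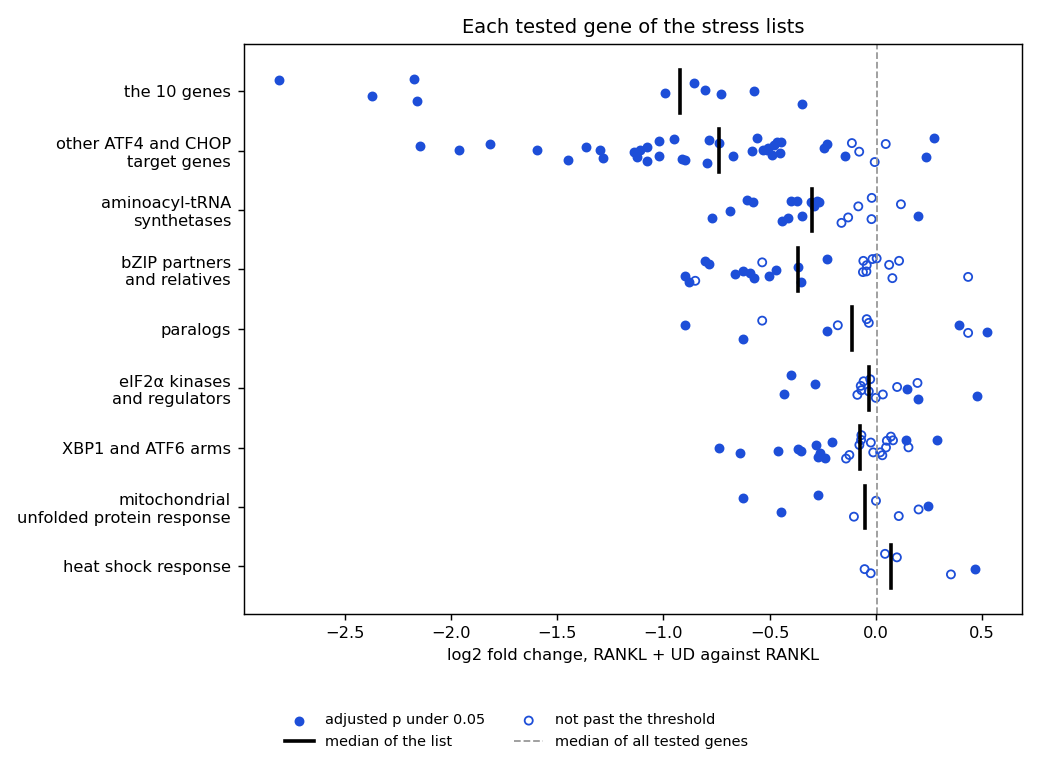
Log2 fold change of each tested gene in RANKL + UD against RANKL (horizontal axis), by list. Filled points passed an adjusted p of 0.05, open points did not, thick lines are list medians and the dashed line is the median of all 11995 genes. The medians of the 10 genes (-0.92) and of the other ATF4 and CHOP targets (-0.74) lie farthest left, and those of the kinase, unfolded protein response and heat shock lists lie between -0.07 and 0.07.

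For the genes upstream of Atf4, the shares called in RANKL + UD against RANKL were near those of all genes. Of 16 eIF2α kinases and regulators, 3 were higher and 3 lower in RANKL + UD against RANKL, with a median of -0.03, where 18.6% of all genes were higher and 20.2% lower. The 3 higher became 1 or 2 when any RANKL or RANKL + UD library was left out, and 6 with library totals as the scaling. Of the 16, 9 were higher and 3 lower in RANKL against control, where 27.3% of all genes were higher and 30.2% lower. Eif2ak3 encodes PERK, the kinase of the endoplasmic reticulum, and held 5.43 to 5.65 FPKM in control, 7.66 to 8.37 in RANKL and 5.96 to 6.73 in RANKL + UD. It rose by 0.61 with RANKL (edgeR adjusted p = 4.05e-07) and fell by 0.40 with UD (edgeR adjusted p = 0.000193). Eif2ak2 encodes PKR, which senses double-stranded RNA, and ran the opposite way with 29.1 to 32.3 FPKM in control, 14.8 to 18.3 in RANKL and 23.7 to 25.7 in RANKL + UD. Its log2 fold change was -0.77 with RANKL (edgeR adjusted p = 2.73e-09) and 0.48 with UD (edgeR adjusted p = 1e-05). Eif2ak4, the amino acid sensor GCN2, differed by -0.09 between RANKL + UD and RANKL (edgeR adjusted p = 0.286), and Eif2ak1, the heme sensor HRI, by 0.10 (edgeR adjusted p = 0.214). Eif2b1, a subunit of the exchange factor that recharges eIF2, and Impact, an inhibitor of GCN2, rose by 0.20 and 0.15. Eif2b2, another subunit of that factor, and the adaptor Nck1 fell by 0.43 and 0.29 on the log2 scale. Ppp1r15b, the constitutive counterpart of Ppp1r15a, held 33.4 to 35.3 FPKM in RANKL and 35.2 to 36.3 in RANKL + UD. After TMM scaling, which FPKM lacks, its log2 fold change was -0.03 (edgeR adjusted p = 0.668), where that of Ppp1r15a was -0.99. The sign for Ppp1r15b thus depends on the scaling. These are mRNA levels, and phosphorylation of eIF2α was not part of these data.

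The other arms of the unfolded protein response are run by XBP1 and ATF6. Of 26 genes, 2 were higher, 10 lower and 14 not called in RANKL + UD against RANKL, where 18.6% of all genes were higher and 20.2% lower. The median was -0.07, and scaling by library totals gave 7 higher. Hspa5, the chaperone BiP, held 301 to 321 FPKM in control, 491 to 497 in RANKL and 442 to 445 in RANKL + UD. It rose by 0.77 with RANKL (edgeR adjusted p = 1.62e-12), fell by 0.24 with UD (edgeR adjusted p = 0.000128) and remained 0.53 above control (edgeR adjusted p = 8.67e-10), unlike 9 of the 10 genes. Xbp1 held 60.6 to 67.6 FPKM in RANKL + UD and 66.1 to 74.4 in RANKL, a difference of -0.21 (edgeR adjusted p = 0.0112). The genes that fell most were Herpud1 (degradation of misfolded proteins) at -0.74, which is also on the ATF4 target list, Dnajb9 (a co-chaperone) at -0.64, Ern1 (the sensor IRE1) at -0.46 and Atf6 (a sensor and transcription factor) at -0.36. Ssr1, of the translocon, and Mbtps2, a protease that releases ATF6, rose by 0.29 and 0.14. In RANKL against control 17 of the 26 were higher and 0 lower by edgeR or DESeq2 (1 lower at an unadjusted p under 0.05 in edgeR, and 3 lower with library totals), where 27.3% of all genes were higher. In RANKL + UD against control 13 were higher and 6 lower.

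Of 13 paralogs of the 10 genes 10 were tested, and in RANKL + UD against RANKL 3 were lower, 2 higher and 5 not called, which is near the 20.2% and 18.6% of all genes. In RANKL against control 1 was higher and 7 lower (median -0.35), where 27.3% of all genes were higher and 30.2% lower. In RANKL + UD against control 1 was higher and 7 lower (median -0.83), where 26.7% were higher and 27.3% lower. The median of the 10 genes in that comparison was -0.58. Cebpb, a C/EBP partner of ATF4, was at 5.23, 8.15 and 6.69 FPKM in RANKL and 3.75, 3.22 and 4.43 in RANKL + UD, lower by 0.90 on the log2 scale (edgeR adjusted p = 0.000484). Atf5, the closest relative of Atf4, held 11.8 to 13.5 FPKM in RANKL and 8.27 to 9.01 in RANKL + UD, lower by 0.63 (edgeR adjusted p = 8.38e-05). Atf5 differed from Atf4 in the first step, where RANKL changed it by 0.04 (edgeR adjusted p = 0.767). Jdp2, the closest relative of Atf3, rose by 3.14 with RANKL (edgeR adjusted p = 6.98e-20), from 13.5 to 15.6 FPKM in control up to 116 to 129.6, while Atf3 fell. With UD, Jdp2 was lower by 0.23 on the log2 scale (edgeR adjusted p = 0.0019). Sesn1, the relative of Sesn2, and Chac2, the relative of Chac1, rose with UD by 0.39 and 0.52 (edgeR adjusted p = 6.38e-05 and 0.0127), where Sesn2 and Chac1 fell. Trib1, Cebpa, Cebpd and Cebpe differed by -0.18, -0.04, -0.53 and 0.43, and did not pass the test. Trib2 and Sesn3 stayed at or under 0.05 FPKM in every library. Stc1 did not pass the filter either, with 0 reads in each control library, 4 to 15 in RANKL and 52 to 56 in RANKL + UD, the reverse order of Stc2 in the last 2 groups. With no filter on low genes Stc1 was 2.61 ± 0.43 higher in RANKL + UD than in RANKL on the log2 scale (SE, edgeR adjusted p = 3.29e-08).

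Over a wider list of bZIP genes, which hold the possible dimer partners, 13 of 25 tested genes were lower and 0 higher in RANKL + UD against RANKL, where 20.2% of all genes were lower and 18.6% higher. The median was -0.36. In the edgeR fit 0 of the 25 rose at an unadjusted p under 0.05 either, and DESeq2 called 0 higher. Cebpb at -0.90, Nfil3 (a repressor of D-box genes) at -0.88 and Fos (a subunit of AP-1) at -0.81 were among those that fell most. Cebpb and Jdp2 are also on the target list, and they and Atf5 are also counted among the paralogs. In RANKL against control 4 were higher and 14 lower (median -0.24), and in RANKL + UD against control 3 were higher and 19 lower (median -0.58). Of this list 6 genes did not pass the filter.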

How the data were processed

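RNA of RAW264.7 cells was measured in 9 poly(A)-selected, dUTP strand-specific libraries (3 control, 3 RANKL, 3 RANKL + UD), sequenced as paired ends on the Illumina NovaSeq platform. The authors deposited 1 table of 56691 genes with 18 value columns, each matched to 1 library by name (the columns called model hold the RANKL libraries). The counts are whole reads per gene, deposited by the authors without normalization. The deposited FPKM values scale each count for exonic length and for the reads of the library, and recomputing them returned 100% of the deposited values within 0.005. The aligner, the counting tool and its use of strand are not given in the sources used here, and the submitters' processing notes name mm10.

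Counts were tested with edgeR 4.0.16 (quasi-likelihood, TMM scaling, all 9 libraries in 1 fit) in R 4.3.3 for genes that reached 1 FPKM in 3 or more libraries, with Benjamini-Hochberg adjustment over 11995 genes and a threshold of 0.05. SE is the log2 fold change over the square root of the F statistic. On simulated counts only the median log2 fold change that the fit returned was checked, and not its calls or p-values. The spread of those counts was not matched to these data. DESeq2 1.42.0, which the paper names, other scalings and filters, a fit to 6 libraries, a replicate block and leaving out each library were alternatives. Replicates differed beyond sampling noise (chi-square per degree of freedom 3.02 to 9.92), so none was merged. Promoter windows came from RefSeq. Tables were made with pandas 2.3.3, scipy 1.17.1 and numpy 2.4.6 under Python 3.11.15, and plots with matplotlib 3.10.9.

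The 10 genes and the lists were chosen with earlier results of these data known. Named are all 10 genes, from each other list up to 4 genes that rose most and up to 4 that fell most at an adjusted p under 0.05 when RANKL + UD was set against RANKL, the eIF2α kinases, Ppp1r15b, Xbp1, Hspa5, all paralogs, and the 5 genes nearest in pattern to Ddit3 and to Atf4. Mars1 and the predicted genes are named because they overlap a member, and Cd3e as a lymphocyte marker listed at 0. Some genes that this rule covers are not reported.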

Additional observations from a re-analysis of the deposited data

How the results depend on the processing

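Of 390 log2 fold changes of the 10 genes recomputed under the alternatives, 379 kept their direction and their side of the threshold, 10 kept their direction but missed the threshold and 1 changed sign. All 10 genes stayed lower in RANKL + UD than in RANKL under each alternative run. The sign change was that of Cebpg in RANKL against control, not called in any case, which ran from -0.10 to 0.0067 over single libraries left out. The number of the 10 genes called higher in RANKL + UD than in control went from 1 to 0 without control library 1, RANKL + UD library 2 or RANKL + UD library 3, and its range over the libraries left out was 0 to 1.

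Of 624 counts over the other lists, 595 stayed within 1.5 times the value given. With library totals as the scaling, RANKL + UD against RANKL gave 6 eIF2α kinases and regulators, 2 tRNA synthetases, 7 XBP1 and ATF6 genes, 2 mitochondrial and 2 heat shock genes higher, and RANKL against control gave 3 tRNA synthetases, 3 XBP1 and ATF6 genes and 2 heat shock genes lower. RLE size factors, DESeq2 and no filter each gave 1 XBP1 and ATF6 gene higher in RANKL + UD against RANKL. No filter and filterByExpr each gave 2 paralogs higher in RANKL against control and 3 in RANKL + UD against control, as more of them were tested. The 6 libraries alone gave 1 heat shock gene lower in RANKL + UD against control. Over single libraries left out, the number higher in RANKL + UD against RANKL ran from 1 to 2 for the kinases and regulators (1 without RANKL library 2 or RANKL + UD library 3), the paralogs (1 without RANKL library 2), the tRNA synthetases (2 without RANKL + UD library 1) and the XBP1 and ATF6 genes (1 without RANKL library 2 or 3 or RANKL + UD library 2). The number of paralogs higher in RANKL + UD against control ran from 1 to 2 (2 without control library 1 or 3), and the number of tRNA synthetases lower in RANKL against control from 0 to 2 (2 without control library 1, 0 without control library 3 or RANKL library 1). Apart from the tests that cover more genes or fewer samples, the cause was not tested.

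Same-numbered libraries of different groups did not deviate together (correlation of deviations -0.02 to 0.10 over 9 pairs), so the numbers were not taken as pairs. With the replicate number as a block, 2347 genes were higher and 2518 lower in RANKL + UD against RANKL, 2 tRNA synthetases were higher in place of 1, and no call of the 10 genes changed. Chac1 had the widest errors of the 10 genes, with a 95% interval of -2.77 to -1.98 in RANKL + UD against RANKL. It also had the fewest reads in a library, and the part of read depth in that width was not tested.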

Other observations

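Of 8 genes of the mitochondrial unfolded protein response, 6 were higher and 0 lower in RANKL against control by edgeR and by DESeq2, and 0 were lower at an unadjusted p under 0.05, with a median log2 fold change of 0.49, where 27.3% of all tested genes were higher. In RANKL + UD against RANKL 1 was higher and 3 lower (median -0.05), where 18.6% of all tested genes were higher and 20.2% lower. Hspd1, a mitochondrial chaperone, rose by 0.24, while Atf5, a transcription factor, fell by 0.63, Lonp1, a protease that is also on the ATF4 target list, fell by 0.45 and Hspa9 fell by 0.27 on the log2 scale. In RANKL + UD against control 6 of the 8 were higher and 1 lower (median 0.40), where the median of the 10 genes was -0.58. Of 8 heat shock genes 6 were tested, and in RANKL + UD against RANKL only Hsph1 was called, higher by 0.47 (edgeR adjusted p = 1.73e-07), with a list median of 0.07. In RANKL against control 3 heat shock genes were higher and 1 lower.

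Genes outside the lists were ordered by how close their pair of log2 fold changes (RANKL against control, and RANKL + UD against RANKL) lay to that of a member. This likeness rests on 9 libraries and on comparisons that share the RANKL libraries, and it is a description with no test. Nearest to Ddit3 was Gadd45a, a stress and DNA damage gene, at a distance of 0.13 log2 units, with mean FPKM values of 2.90 in control, 4.73 in RANKL and 1.13 in RANKL + UD. Gm10135, AY036118, Frat2 and Gm25579 followed, at distances from 0.21 to 0.30. Mean FPKM in control, RANKL and RANKL + UD was 0.94, 1.44 and 0.28 for Gm10135 and 0.97, 1.60 and 0.44 for Frat2. Only their RANKL means exceed the filter of 1 FPKM, so the filter itself may favor this pattern among such low genes. AY036118 had means of 16.9, 25.7 and 6.44 and Gm25579 of 1.27, 2.91 and 0.50. Nearest to Atf4 was Ell, a transcription elongation factor, at a distance of 0.02, with mean FPKM values of 6.75, 8.52 and 6.14. Aars, which is also on the tRNA synthetase list, was next with 25.5, 32.0 and 22.8 FPKM, followed by Myo10, Pnpla8 and Crbn, each within 0.04 log2 units of Atf4.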
